A study of Mus musculus with 16 samples.

Results

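A cluster of C2H2 zinc finger genes and retrotransposed pseudogenes on distal mouse chromosome 4 was described in 4 induced pluripotent stem cell (iPSC) lines. Its members were the named genes on chromosome 4 with a start between positions 145400000 and 147600000 (mm10), a window of 2.2 Mb. The window was chosen by the H3K4me3 signal at Smarca5-ps and Zfp991 (Gm13139 in the deposited tables), which was lower in the tail tip fibroblast lines, so the H3K4me3 difference between the origins is given as a description with no test. The histone table held 83 members among 38087 named genes, and the methylation table held 77 members among 55471 genes.

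The lines were made from littermates heterozygous for each of 4 transgenes. These were SLC34a1-GCE, the tdTomato reporter, rtTAROSA (neo-in) and OKMS-250, with which doxycycline switches on Oct4, Klf4, c-Myc and Sox2. The mice were fed tamoxifen, and kidneys and tail tips were collected at 8 to 10 weeks of age. PTC11 and PTC12 came from proximal tubule cells, in which Slc34a1 drives the tamoxifen-dependent Cre recombinase, after sorting for tdTomato and GFP. TTF1 and TTF4 came from tail tip fibroblasts that received Cre on an episomal plasmid. Each line was 1 clone that no longer needed doxycycline and was kept on mouse embryonic fibroblast feeders. The paper reports ChIP in duplicate for each line. The deposited data hold 1 library per line for each of H3K4me3, H3K36me3 and CpG methylation. Origin was therefore compared over 2 lines against 2, and the way Cre was delivered cannot be told apart from origin. Of 12 pluripotency genes, 9 had an H3K4me3 value in all 4 lines. By line it was listed for 11 in each of PTC11, PTC12 and TTF1 and for 9 in TTF4. H3K36me3 was listed for 12, 11, 12 and 8 of them in PTC11, PTC12, TTF1 and TTF4. H3K4me3 was listed for 1 to 2 of 8 proximal tubule genes and for 2 to 6 of 9 fibroblast or feeder genes per line. For H3K36me3 these numbers were 5 to 8 of 8 and 6 to 9 of 9, both lowest in TTF4. The share of such cells and the level per cell cannot be told apart in these bulk libraries.

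C2H2 zinc finger proteins bind DNA through repeated fingers, and many that carry a KRAB domain recruit Trim28 (KAP1) and the histone methyltransferase Setdb1 to silence retrotransposons. Their genes lie in clusters that grew by duplication, which also copied the pseudogenes between them. H3K4me3 marks active or poised gene starts, H3K36me3 marks transcribed gene bodies, and methylation of a CpG-rich gene start usually goes with silencing. Processed pseudogenes are copies of an mRNA inserted into the genome, so a copy can carry the CpG-rich first part of its parent transcript.

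GENCODE listed 54 pseudogenes and 18 protein-coding genes among the 83 members, all at the coordinates of the deposited table. Of the protein-coding genes, 16 encoded 2 to 20 C2H2 fingers by a pattern search of the translated reference (median 12). Gm13212 had the most with 20, Zfp600 had 17 and Zfp991 had 11. Among the pseudogenes, 8 matched Cdv3, 8 matched Rplp1, 5 each matched Hmgb1, Smarca5 and Tlk2, and 4 each matched Hmgb2 and Ppp2r5a. Smarca5 encodes the ATPase of ISWI chromatin remodelers, Tlk2 a kinase of histone chaperones, Ppp2r5a a regulatory subunit of protein phosphatase 2A, Hmgb1 and Hmgb2 chromatin proteins, and Rplp1 a protein of the ribosomal stalk. A further 7 members were Vmn2r pseudogenes, remnants of vomeronasal receptor genes, of which Vmn2r-ps15 to Vmn2r-ps19 each stood beside a Tlk2 copy.

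The members split by their number of CpGs within 1 kb on either side of the gene start. The 18 CpG-rich members had 57 to 129 CpGs and the other 65 members had 7 to 39, against a median of 23 over all genes. All Smarca5, Ppp2r5a and Tlk2 copies and 4 of the 8 Cdv3 copies were CpG-rich, and the zinc finger genes had 10 to 28 CpGs. The reference sequence has gaps over 19.6% of the window, and the copies resemble each other closely. Only a median of 13.1% of the 24-base words around a member's start occurred once in the genome, with fewer than 10% in 37 members, which bears on how short reads could be placed.

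The CpG-rich stretches of the 5 Smarca5 copies are shown first, since all 5 were highly methylated in 1 line and not in the others. Each is the stretch of at most 120 bases that matches the most CpG-dense part of Smarca5-ps, on the plus strand, with CpGs in capitals. They lie at chr4:145464251-145464370, chr4:145641111-145641230, chr4:146067705-146067817, chr4:146942429-146942540 and chr4:147275930-147276049 (GRCm38), and the other 4 copies differed from Smarca5-ps at 3 to 7 bases.
Smarca5-ps: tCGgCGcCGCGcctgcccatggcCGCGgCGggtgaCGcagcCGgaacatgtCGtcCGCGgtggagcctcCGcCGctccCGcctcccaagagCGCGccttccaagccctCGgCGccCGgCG
Gm13231: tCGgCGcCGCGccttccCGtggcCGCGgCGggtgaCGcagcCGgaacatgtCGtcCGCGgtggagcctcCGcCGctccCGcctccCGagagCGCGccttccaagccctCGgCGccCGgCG
Gm13034: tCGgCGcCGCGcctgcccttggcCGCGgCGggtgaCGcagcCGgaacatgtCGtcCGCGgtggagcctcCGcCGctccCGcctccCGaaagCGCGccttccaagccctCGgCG
Gm13140: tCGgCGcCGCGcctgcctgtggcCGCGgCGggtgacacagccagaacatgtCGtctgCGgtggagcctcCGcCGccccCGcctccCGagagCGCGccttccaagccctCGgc
Gm13135: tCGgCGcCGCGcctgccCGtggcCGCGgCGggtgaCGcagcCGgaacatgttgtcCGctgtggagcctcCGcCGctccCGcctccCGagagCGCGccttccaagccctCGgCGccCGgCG
Smarca5-ps held 21 CpGs in this stretch, Gm13231 held 23, Gm13034 held 20, Gm13140 held 16 and Gm13135 held 21.

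A stretch upstream of 3 Ppp2r5a copies is shown because the copies differed in methylation in TTF4 although its bases are the same in them. Gm13244 was at 21.9% in TTF4, against 83.6% at Gm13169 and 71.4% at Gm13233. These values cover 1 kb on either side of each start, not this stretch alone. The stretch lies at chr4:145745506-145745625 beside Gm13244, at chr4:146580389-146580508 beside Gm13233 and at chr4:146239744-146239863 beside Gm13169.
Gm13244, Gm13233 and Gm13169: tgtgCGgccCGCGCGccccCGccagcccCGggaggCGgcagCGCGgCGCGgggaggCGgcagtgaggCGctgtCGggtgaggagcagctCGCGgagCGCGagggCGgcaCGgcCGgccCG
The stretch held 22 CpGs, and the 120 bases were identical in the 3 copies. The most CpG-dense 120 bases are shown for a CpG-rich Cdv3 copy (Gm13238, chr4:145837024-145837143), a CpG-poor one (Gm13234, chr4:145632574-145632693) and the Tlk2 copy Gm13243 (chr4:145774364-145774483).
Gm13238: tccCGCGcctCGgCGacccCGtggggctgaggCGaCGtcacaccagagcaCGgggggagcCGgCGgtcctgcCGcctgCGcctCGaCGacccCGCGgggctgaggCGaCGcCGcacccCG
Gm13234: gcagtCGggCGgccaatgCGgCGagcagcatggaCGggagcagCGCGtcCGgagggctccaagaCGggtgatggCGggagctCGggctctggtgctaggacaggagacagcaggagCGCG
Gm13243: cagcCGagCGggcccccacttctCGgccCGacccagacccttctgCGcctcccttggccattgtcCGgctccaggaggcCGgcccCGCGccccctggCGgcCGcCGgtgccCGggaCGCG
These held 20, 13 and 15 CpGs. The 120 bases before the annotated start of Zfp991, 1 of the genes that chose the window, lie at chr4:147131918-147132037 and show how few CpGs a zinc finger gene start has here.
Zfp991: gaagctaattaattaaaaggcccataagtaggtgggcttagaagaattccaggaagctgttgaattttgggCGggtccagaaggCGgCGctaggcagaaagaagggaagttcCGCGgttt
This stretch held 5 CpGs.

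Methylation, which took no part in choosing the window, was the readout in which the CpG-rich pseudogenes stood out. Smarca5-ps was methylated at 35.2% and 17.9% in PTC11 and PTC12, and 8.81% and 97.9% in TTF1 and TTF4. The 18 CpG-rich members had a median methylation of 19.9% in PTC11 (range 2.38 to 38.8%), 23.8% in PTC12 (range 0 to 51.2%), 14.9% in TTF1 (range 2.92 to 44.8%) and 82.4% in TTF4 (range 21.9 to 97.9%). TTF4 was the highest of the 4 lines at 17 of these 18 starts. It was also the most methylated line over all gene starts, with a mean of 64.9%. The share of all genes with TTF4 highest is not given here, so nothing is read from this count. As deposited, TTF1 was below both PTC lines at 8 of the 18 and above both at 4. In values centred on each line's mean, both TTF lines exceeded both PTC lines at 27.8% of the CpG-rich members. The same held for 9.49% of the genes outside the window with as many CpGs. Among the 208 processed pseudogenes of that group it held for 26.4%, close to the share of the CpG-rich members.

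**Figure D1:**
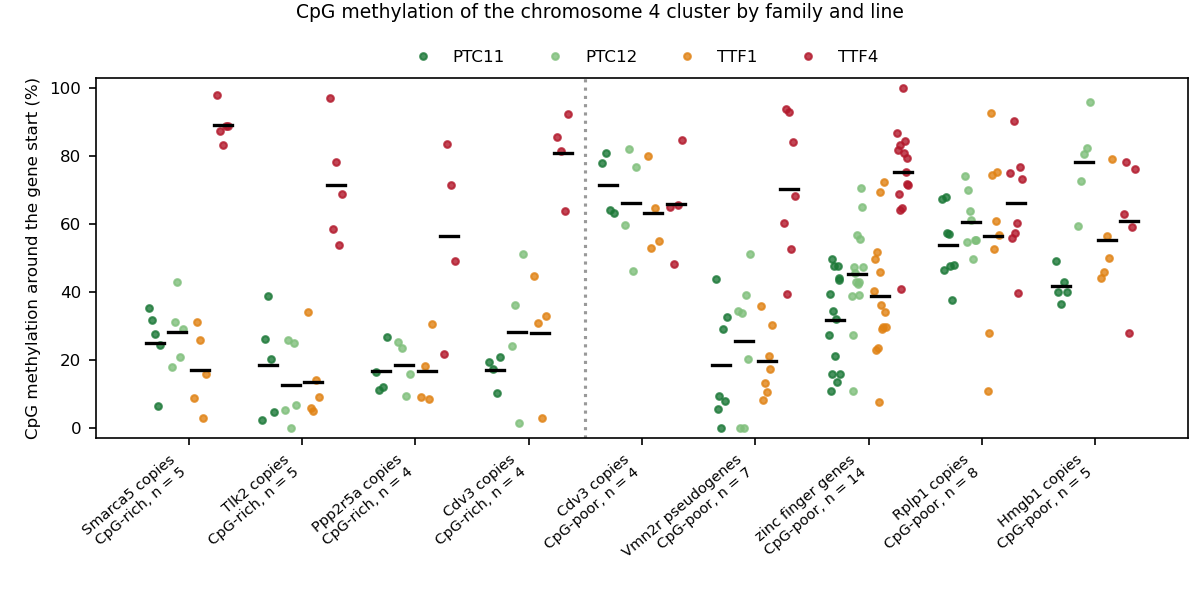
CpG methylation (%) around the gene start by family; each point is 1 member with a value in all 4 lines, the black bars are means over members, and colors are the 4 iPSC lines. TTF4 lies apart from the other lines in the CpG-rich families on the left, where its means are 56.5 to 89.3%, and less so or not in the CpG-poor families on the right.

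The Smarca5 copies were methylated at 25.1% ± 11.2 and 28.3% ± 9.82 in PTC11 and PTC12, and 16.9% ± 11.7 and 89.3% ± 5.33 in TTF1 and TTF4 (SD over the 5 copies, which share their sequence and are not replicates). In TTF4 each of the 5 copies was at 83.3% or more, and in the other lines none exceeded 42.9%. The Tlk2 copies were methylated at 18.5% ± 15.2 and 12.5% ± 12 in PTC11 and PTC12, and 13.6% ± 12 and 71.4% ± 17.2 in TTF1 and TTF4 (SD, 5 copies). Their highest value was Gm13243 in TTF4.

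Gm13243 was at 2.38% and 5.13% in PTC11 and PTC12, and 34.1% and 97.2% in TTF1 and TTF4. Both TTF lines exceeded both PTC lines there, and its TTF minus PTC difference, centred on each line's mean, was 0.53 ± 0.15 (limma SE) with an adjusted p of 0.35 over all genes. TTF4 was also the highest line at the 5 Vmn2r remnants beside the Tlk2 copies, by unequal amounts. Each of these starts lies less than 1 kb from that of its Tlk2 copy. Their windows therefore share bases, and the pairs are not separate observations. Vmn2r-ps15 was at 5.56%, 0%, 8.15% and 93.8%, and Vmn2r-ps16 at 0%, 0%, 10.6% and 92.9%, in PTC11, PTC12, TTF1 and TTF4. Vmn2r-ps17, beside Gm13168, was at 9.41%, 33.8%, 13.3% and 39.4%, so TTF4 lay close to PTC12 there, and Gm13168 itself was at 26.1%, 25.8%, 5.71% and 58.7%.

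The 4 CpG-rich Cdv3 copies were at 16.9% ± 4.75 and 28.2% ± 21.1 in PTC11 and PTC12, and 27.9% ± 17.8 and 80.8% ± 12.2 in TTF1 and TTF4 (SD). The 4 CpG-poor copies of the same parent, with 25 to 27 CpGs, were at 71.6% ± 9.15, 66.2% ± 16.3, 63.2% ± 12.4 and 65.9% ± 14.9 in the same order. The CpG-poor copies thus had similar means in the 4 lines, while single copies differed between lines. The CpG-rich Gm13238 was at 19.5%, 24.2%, 44.8% and 85.7%, and the CpG-poor Gm13234 at 80.9%, 82%, 52.8% and 48.3%. Another CpG-poor copy, Gm13158, was at 63.4%, 76.7%, 55% and 84.7%.

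The Ppp2r5a copies varied most in TTF4. Gm13169 was at 11% and 23.4% in PTC11 and PTC12, and 18.1% and 83.6% in TTF1 and TTF4. Gm13233 was at 12.1%, 9.45%, 8.57% and 71.4%, and Gm13142 at 26.9%, 15.8%, 30.7% and 49.1%. Gm13244 was at 16.4%, 25.3%, 9.09% and 21.9%, the 1 CpG-rich start at which TTF4 was not the highest line. Its window was 99.2% identical to that of Gm13233 over the aligned bases, and 10.9% of its 24-base words occurred once in the genome against 1.42% for Gm13233.

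The zinc finger genes, with few CpGs, were also highest in TTF4 on average. The 14 with values in all 4 lines had means of 31.7% ± 14.1 and 45.2% ± 14.9 in PTC11 and PTC12, and 38.7% ± 17.9 and 75.3% ± 13.8 in TTF1 and TTF4 (SD over genes). Genes outside the window with over 10 and up to 20 CpGs had medians of 50.5% in PTC11 and 66.4% in PTC12. Their medians were 50.8% in TTF1 and 84% in TTF4, so TTF4 was the highest line at genes with few CpGs elsewhere too. TTF4 was the highest line at 11 of the 14, a count for which the share of all genes is not given here. At 7 it exceeded each other line by more than 30 percentage points, against 14.9% of all genes. Zfp981 was at 21.1%, 42.4%, 45.8% and 100%, and Zfp980 at 11%, 10.8%, 23.0% and 68.9%. Rex2 was at 13.5%, 39.1%, 29.1% and 84.5%. The exceptions were Zfp600 (34.3%, 42.9%, 7.67% and 41.0%), Zfp988 (72.3% in TTF1 and 71.9% in TTF4) and Zfp992 (69.5% in TTF1 and 64.6% in TTF4). Zfp991 was at 47.5%, 55.6%, 29.7% and 75.2%, so the PTC lines lay between the TTF lines there. The Rplp1 and Hmgb1 copies, with 12 to 20 CpGs, ranged from 39.7 to 90.3% and from 27.9 to 78.4% in TTF4, and overlapped there with the ranges in each other line.

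TTF4 was the most methylated line genome-wide, with a mean of 64.9% over all gene starts against 37.2% in PTC11, 48.2% in PTC12 and 37.9% in TTF1. TTF4 exceeded each other line by more than 30 percentage points at 15 of the 18 CpG-rich members and at 11 of the 51 other members with values. Over all genes this held for 14.9%, and over the 11383 genes outside the window with 57 to 129 CpGs for 10.8%. Median methylation of the latter was 8.77% and 12.5% in PTC11 and PTC12, and 8.88% and 25.3% in TTF1 and TTF4. Processed pseudogenes outside the window with as many CpGs passed the same limit at 77 of 208 (37.0%), with medians of 30.4%, 45.0%, 36.8% and 86.0%. TTF4 was thus high at CpG-rich processed pseudogenes elsewhere too, while the 3 other lines had lower medians at the members than at those pseudogenes. After each line was centred on its own mean, 7 of the 18 CpG-rich members passed the limit, against 3.07% of the genes outside with as many CpGs. The limit of 30 points and the split by CpG number were chosen after the values were seen, and with 1 line standing apart there is no test of this pattern. In the flanking windows of the same width, 27 of 149 genes passed it (18.1%).

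**Figure D2:**
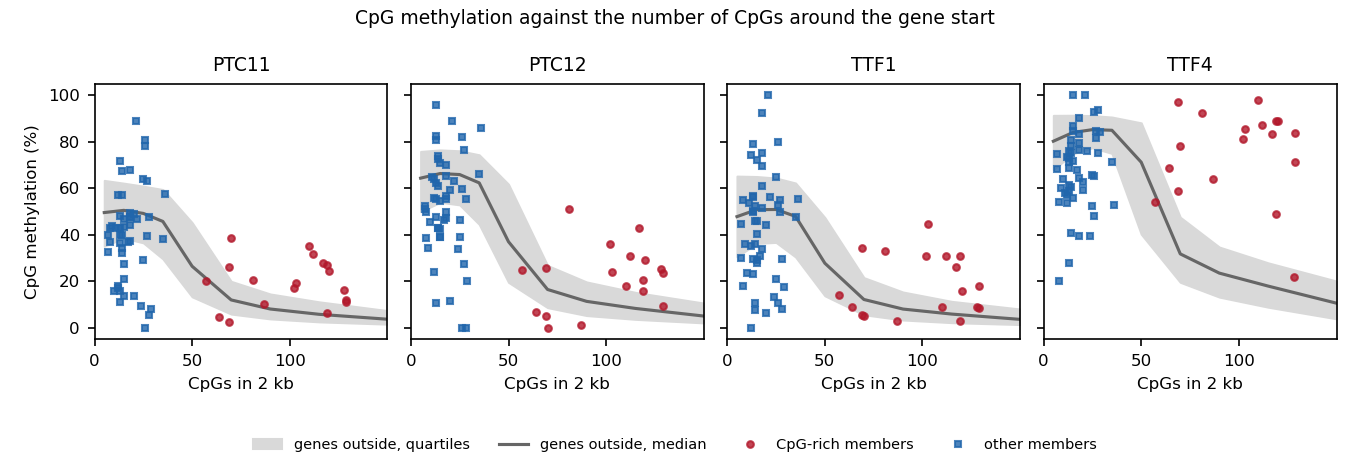
CpG methylation (%) of each member against the number of CpGs in the 2 kb around its start, in 1 panel per line; the grey line and band are the median and quartiles of genes outside the window. The CpG-rich members (red circles) lie at 0 to 51.2% in PTC11, PTC12 and TTF1 and at 21.9 to 97.9% in TTF4, where Gm13244 is the lowest.

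Between the origins, no member passed limma for methylation (adjusted p under 0.05) among 69 tested. The smallest adjusted p of a member was 0.35, and 8 members had an unadjusted p under 0.05, or 11.6% against 4.72% of all genes. Over all 50657 genes tested, limma called 0.00197% higher and 0.00197% lower in TTF. In centred values, 18 members had the PTC lines below each TTF line, 5 of them CpG-rich, where 15.0% of all genes did so. Both lay below in 11 members, against 12.8% of all genes. The median centred difference, TTF minus PTC, was 0.04 over the 69 members and -0.01 over all genes, and over the CpG-rich members it was 0.19. Without TTF1, which leaves TTF4 against the PTC lines, limma called 9 of 69 members, 7 higher and 2 lower, where it called 1.97% of all genes. Without TTF4 it called 1 of 70 members and 0.517% of all genes. In these fits the TTF arm was 1 line, assumed to vary like the PTC lines, which alone gave the spread.

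The largest rises after Gm13243 were Vmn2r-ps16 (0.43), Vmn2r-ps15 (0.39), Gm13238 (0.35) and Zfp981 (0.32), as centred fractions. The largest falls were Gm13234 (-0.40), Gm13229 (-0.37), Gm13165 (-0.30), Gm13160 (-0.26) and Gm13170 (-0.25). Of the 5 largest rises, Gm13243 and Gm13238 were CpG-rich and the other 3 were not, and none of the 5 largest falls was CpG-rich. Of those 3, Vmn2r-ps15 shares part of its window with the CpG-rich Gm13243, and Vmn2r-ps16 with the CpG-rich Gm13240. The other Tlk2 copies had differences of -0.02 to 0.25. Gm13229, an Rplp1 copy, was at 67.4% and 74.0% in PTC11 and PTC12, and 10.9% and 75% in TTF1 and TTF4, so its fall rested on TTF1. Gm13165, an antisense RNA gene, was at 42.9%, 38.5%, 17.9% and 20.2%, with both TTF lines below both PTC lines. Gm13160, an Hmgb2 copy, was at 57.5%, 85.8%, 55.5% and 53.0%, and Gm13170, an Hmgb1 copy, at 36.3%, 80.7%, 56.4% and 27.9%.

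H3K4me3 values, in RPKM after subtraction of the input, chose the window. Smarca5-ps had 2.04 and 2.30 in PTC11 and PTC12, and 1.52 and 0.235 in TTF1 and TTF4. Both TTF lines were lower, and TTF4 lay far below TTF1. Its log2(RPKM + 1) difference, TTF minus PTC, was -0.84, and -0.33 without TTF4. Zfp991 had 0.861 and 0.330 in the PTC lines and was listed at 0 in both TTF lines, a difference of -0.65 on the same scale. The signal at Zfp991 was therefore low in every line.

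Of the 83 members, 60 had an H3K4me3 value in at least 1 line and 10 in all 4. TTF4 had a value at 16 members, PTC11 at 38, PTC12 at 49 and TTF1 at 51. In the whole table TTF4 and PTC11 also had the fewest genes with a value, 15368 and 15114, against 19990 in PTC12 and 19448 in TTF1. All 18 CpG-rich members had a value in PTC11, PTC12 and TTF1, and 7 of them had one in TTF4. The levels at the CpG-rich members had medians of 1.54 RPKM in PTC11, 2.34 in PTC12 and 1.67 in TTF1. Among 29 members with a value in these 3 lines, 19 had none in TTF4, where 7.52% of all such genes had none. This count comes from the contrast that chose the window. In TTF4, the 11 CpG-rich members without H3K4me3 were methylated at 58.7 to 97.2% (median 83.3%), and the 7 with it at 21.9 to 97.9% (median 68.9%), so that the ranges overlapped.

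**Figure D3:**
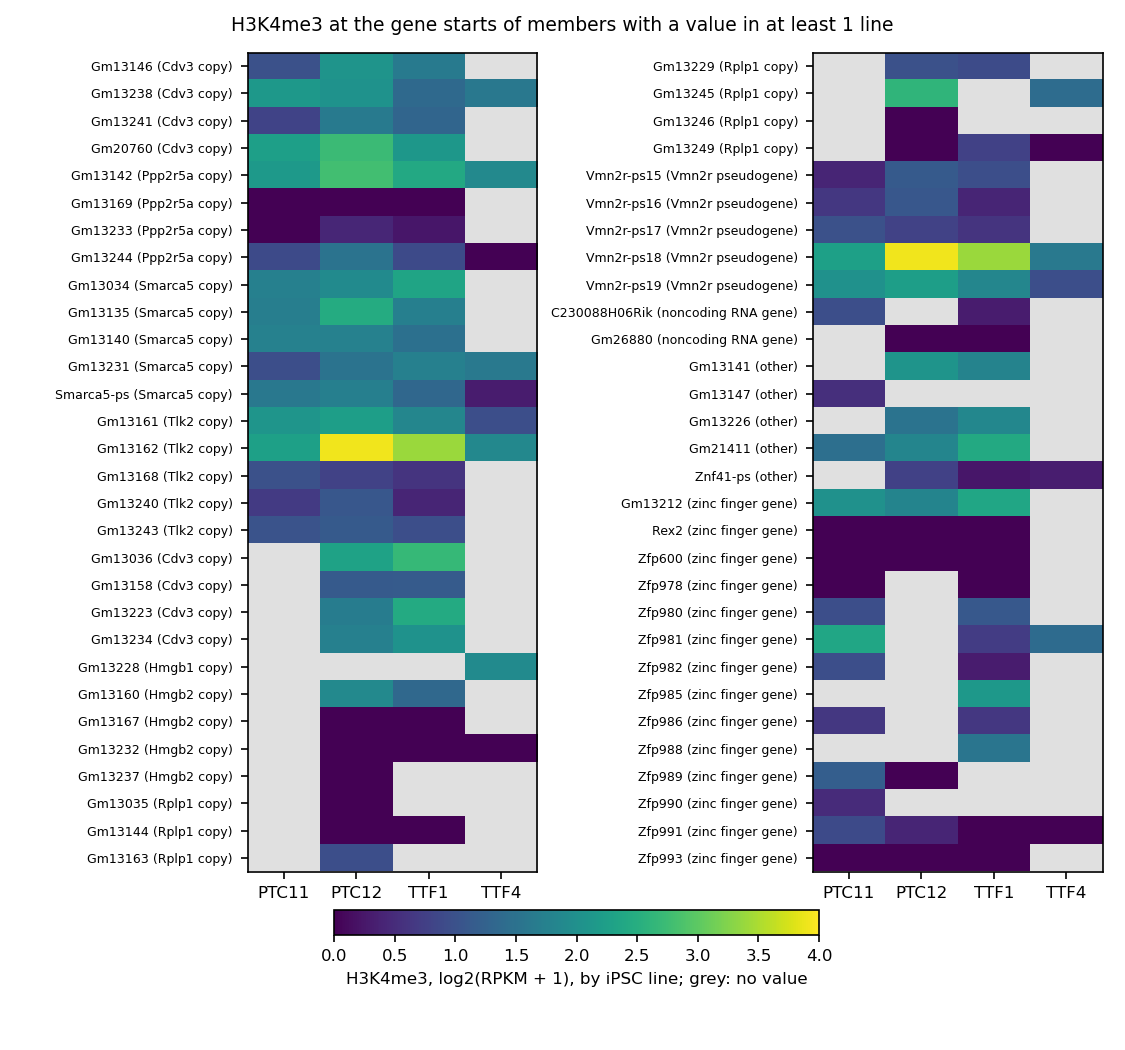
H3K4me3 as log2(RPKM + 1) at the gene start (color) in each of the 4 lines (columns) for the 60 members with a value in at least 1 line, CpG-rich members first; grey means no value and Gm13139 appears under its current symbol Zfp991. The TTF4 column is grey for 44 of the 60 members.

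Among the Smarca5 copies, Gm13231 had 0.955, 1.89, 2.36 and 2.06 RPKM in PTC11, PTC12, TTF1 and TTF4, and was higher in both TTF lines than in both PTC lines. It differed in this from Smarca5-ps, although 97.5% of the stretch shown above is the same. Gm13034 had 2.35, 2.78 and 4.02, Gm13135 had 2.28, 4.49 and 2.29, and Gm13140 had 2.38, 2.38 and 1.78, in PTC11, PTC12 and TTF1, and none had a value in TTF4. The family thus kept the mark in TTF1.

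The Tlk2 copies and their Vmn2r neighbours shared peaks and often the same value. Gm13162 had 3.81, 14.1, 9.50 and 2.66 RPKM, and the adjacent Vmn2r-ps18 had 3.81, 14.1, 9.50 and 2.07. Gm13161 had 3.27, 3.71, 2.57 and 0.939, and the adjacent Vmn2r-ps19 had 3.04, 3.71, 2.57 and 0.939. In both pairs TTF4 was the lowest line. Gm13243, Gm13168 and Gm13240 had 0.332 to 1.20 RPKM in the other 3 lines and no value in TTF4.

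The Ppp2r5a copy Gm13142 had 3.42 and 5.91 in PTC11 and PTC12, and 4.34 and 2.67 in TTF1 and TTF4. Gm13244 had 0.858, 1.88 and 0.860 and was listed at 0 in TTF4. The CpG-rich Cdv3 copy Gm13238 had 3.40, 3.09, 1.57 and 2.02, so that both TTF lines were lower. The 4 CpG-poor Cdv3 copies each had a value in PTC12 (1.19 to 3.95) and TTF1 (1.23 to 5.38) and none in PTC11 or TTF4, and 11 members in all had this pattern. PTC12 and TTF1 come from different origins.

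A value in the lines of 1 origin only was found at 10 of the 60 members with a value, 7 in PTC and 3 in TTF. Over all genes with a value in at least 1 line, 8.97% had one in PTC lines only and 7.17% in TTF lines only. Those with PTC values only were Zfp989 (1.29 in PTC11, 0 in PTC12), Gm13147 (0.458 in PTC11), Zfp990 (0.405 in PTC11) and 4 members with a value in PTC12 alone. Of the latter Gm13163 had 0.955 RPKM, and Gm13035, Gm13237 and Gm13246 were listed at 0. Those with TTF values only were Zfp985 (3.40) and Zfp988 (1.93) in TTF1 and Gm13228 (2.76) in TTF4. None of the 10 had a value above 0 in both lines of its origin. Values of exactly 0 were listed at 17 members, in which a median of 5.21% of the 24-base words occurred once in the genome, against 25.2% in the 43 members with higher values only. Whether read placement set these values was not tested.

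Over the 10 members with H3K4me3 in all 4 lines, the median log2(RPKM + 1) difference, TTF minus PTC, was -0.63, beside 0.04 over all 13709 genes, and -0.05 over 29 members without TTF4. Both TTF lines were below both PTC lines at 5 of the 10, namely Smarca5-ps, Zfp991, Gm13238, Gm13161 and Vmn2r-ps19, where 3.17% of all genes had this order. Smarca5-ps and Zfp991 chose the window, and without them the count was 3 of 8, of which Gm13161 and Vmn2r-ps19 share the same values in 3 lines, so nothing is read from it. Both were above at 1, Gm13231, where 5.04% of all genes did. The flanking windows had a median of -0.0015 over 43 genes, and Zfp genes outside the window 0.05 over 257.

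H3K36me3 over the gene body had a lower mean in the TTF lines at 29 of the 37 members with a value in every line, and 2 of these passed the test. The median difference over all genes was also negative, and the share of all genes with a lower TTF mean is not given here. Nothing is therefore read from the count of 29. Over the 37 members with a value in all 4 lines the median was 0.856 RPKM and 1.77 in PTC11 and PTC12, and 0.526 and 1.17 in TTF1 and TTF4. Over all genes PTC12 and TTF4 were likewise the higher lines and TTF1 the lowest, with medians of 1.66, 4.04, 1.21 and 4.07. PTC12 was the highest line at 26 of the 37 members and TTF1 the lowest at 22, and the shares of all genes with these orders are not given here. The median log2(RPKM + 1) difference, TTF minus PTC, was -0.43 beside -0.14 over all genes, and ranged from -0.78 to -0.04 as each line was left out.

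**Figure D4:**
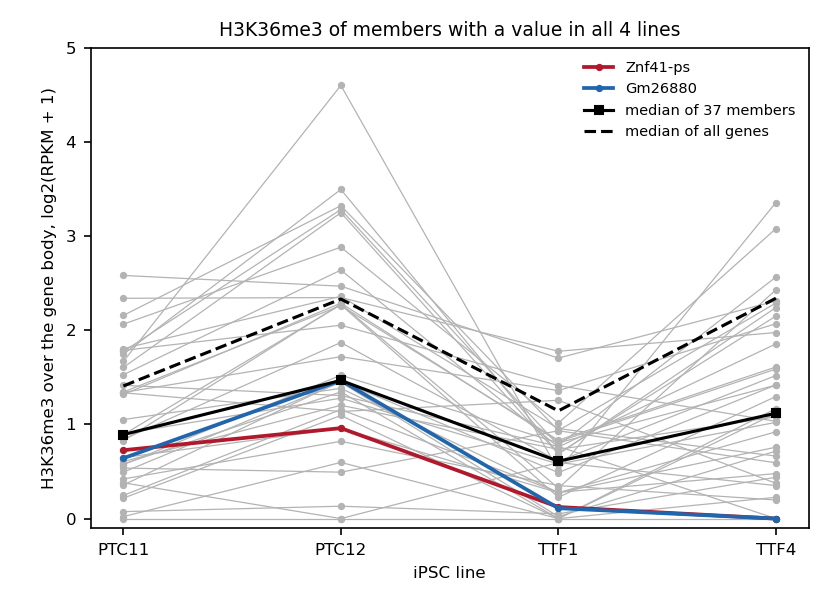
H3K36me3 over the gene body as log2(RPKM + 1) in each line for the 37 members with a value in all 4 lines (grey lines), their median (squares) and the median of all genes (dashed). Znf41-ps and Gm26880 are at or near 0 in both TTF lines, and PTC12 and TTF4 are higher than PTC11 and TTF1 in both medians.

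Znf41-ps and Gm26880 passed limma for H3K36me3 and were lower in TTF. Znf41-ps (ENSMUSG00000084350, a zinc finger pseudogene at chr4:145825237-145829942) had 0.655 and 0.947 RPKM in PTC11 and PTC12, 0.0890 in TTF1, and was listed at 0 in the TTF4 library. Gm26880 (ENSMUSG00000096979, a lincRNA gene at chr4:146509094-146511764, AL627077.2 in the deposited tables) had 0.560, 1.77 and 0.0795 and was listed at 0 in TTF4. Gm26880 lies within the gene body of Zfp981, on the other strand, so its value cannot be told apart from that of Zfp981 there. The log2(RPKM + 1) difference was -0.78 ± 0.17 at Znf41-ps (limma SE, adjusted p = 0.00755) and -1.0 ± 0.20 at Gm26880 (limma, adjusted p = 0.00260). Both TTF lines lay below both PTC lines at each. Both calls were lost under quantile normalization, without the variance trend and without TTF4. A filter for a mean of at least 1 RPKM removed both members before the test, so it says nothing of their calls. At the start of Znf41-ps, 0.303% of the 24-base words occurred once in the genome. Over all genes limma called 0.0235% higher and 0.0880% lower in TTF. An unadjusted limma p under 0.05 was found at 6 of the 37 members, or 16.2% against 0.681% of all genes. These 6 include both Gm26880 and Zfp981, which share bases. The members also had lower medians than all genes in every line, and the share among genes of like level is not given here. Nothing is therefore read from the 16.2%.

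Both TTF lines were below both PTC lines in H3K36me3 at 9 of the 37 members, against 3.05% of all genes, and above at 1, Zfp988, against 0.452%. Under quantile normalization, added after the values were seen, 12 of the 37 had the lower order against 13.7% of all genes. Besides Znf41-ps and Gm26880 these 9 were the zinc finger genes Zfp981, Zfp982, Zfp986, Zfp991 and Zfp992, the antisense RNA gene 1700095A21Rik and the CpG-poor Cdv3 copy Gm13158. Of these, Gm26880 lies within the gene body of Zfp981 (chr4:146502027-146539395) and 1700095A21Rik overlaps it. The values of these members can rest on the same bases, so the 9 are not separate stretches. Zfp982 had the highest level of the zinc finger genes in PTC11, with 4.99 there, 4.54 in PTC12, 2.26 in TTF1 and 3.97 in TTF4. Zfp981 had 1.67 and 1.48 in the PTC lines, 0.701 in TTF1 and 0 in TTF4. Zfp991 had 0.339, 0.766, 0.275 and 0.147, in the same direction as its H3K4me3.

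The 5 largest falls in H3K36me3 were at Gm13158 (-1.27), Gm13162 (-1.20), Gm13147 (-1.20), Gm13142 (-1.13) and Gm26880. Except at Gm13158 and Gm26880, PTC11 was lower than TTF4 at these. Gm13162 had 2.18, 23.3, 0.425 and 9.25 RPKM, Gm13147 had 2.35, 10.3, 0.617 and 3.44, and Gm13142 had 3.46, 9.02, 0.912 and 3.89. The values there were high in PTC12 and low in TTF1, with the other lines between. The 5 largest rises were smaller, at Zfp988 (0.28), Gm13212 (0.25), Platr16 (0.18), Gm13233 (0.14) and Zfp600 (0.06). Platr16, a noncoding RNA gene expressed with pluripotency genes, had 1.53, 2.29, 1.57 and 3.2, and Gm13212 had 0.451, 0.408, 0.910 and 0.508.

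The Smarca5 copies had H3K36me3 in TTF4 at all 5 members, together with methylation of 83.3% or more at their starts. Smarca5-ps had 0.775 RPKM and 3.85 in PTC11 and PTC12, and 0.251 and 4.39 in TTF1 and TTF4, so the line with the least H3K4me3 had the most H3K36me3. H3K36me3 at Gm13034 was 2.60, 12.3 and 10.5 in PTC11, PTC12 and TTF4, with no value in TTF1. TTF4 and PTC12 were the higher lines over all genes too.

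H3K27me3, a mark of Polycomb repression, had no value at any member in any of the 4 libraries. Both PTC libraries of this mark carried the label of line PTC11, and the mark was listed for 11 to 144 genes per library in the whole table, so no comparison was made.

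Of the parents of CpG-rich copies, Smarca5 and Cdv3 have CpG-rich starts, with 185 and 183 CpGs. Smarca5 was methylated at 0.679% and 0% in PTC11 and PTC12, and 1.27% and 13.7% in TTF1 and TTF4, and Cdv3 at 6.60%, 3.92%, 1.89% and 13.9%. Both had H3K4me3 in every line, with 3.16 to 5.00 RPKM at Smarca5 and 3.5 to 5.56 at Cdv3. The annotated starts of Ppp2r5a and Tlk2 have 19 and 14 CpGs and are no match for the CpG-rich copies. Ppp2r5a was at 30.7%, 77.7%, 58.1% and 98.5%, and Tlk2, without H3K4me3 in any line, at 22.4%, 97.3%, 61.9% and 94.9%. A list of 27 genes held Smarca5 and genes of zinc finger repression, among them Trim28, Setdb1, Dnmt1 and Atrx, and Fam208a of this list had no values. None of the 22 with H3K36me3 and none of the 26 with methylation in all lines passed limma between the origins (lowest adjusted p 1 for H3K36me3 and 0.9999 for methylation). Their median methylation was 6.23%, 9.34%, 4.64% and 21.1% in PTC11, PTC12, TTF1 and TTF4. In TTF4, 5 of the 26 exceeded the limit of 30 points, where 14.9% of all genes did, so nothing is read from this count. Setdb1, the methyltransferase, went the other way with 18.4%, 32.0%, 21.1% and 0.114%.

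At the edges of the window, the outermost members were Gm13224, with no H3K4me3 and methylation of 43.0 to 64.9%, and Zfp985, with H3K4me3 in TTF1 alone (3.40 RPKM). Just outside lay Gm13024, with no H3K4me3 and methylation of 53.1 to 63.3%, and 2610305D13Rik, with H3K4me3 listed at 0 in both PTC lines and no value in the TTF lines.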

How the data were processed

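Histone marks were measured by ChIP-seq and CpG methylation by nanopore sequencing in the iPSC lines PTC11, PTC12, TTF1 and TTF4, grouped by the labels. The deposited histone values are RPKM that the authors computed per gene with Bowtie2 2.1.0 on mm10, MACS2 2.0.10 and bedtools 2.17.0. They subtracted the input and averaged peaks near the gene start, or for H3K36me3 across the gene body, and a gene without a peak has no value. For methylation the authors deposited a fraction per gene, the mean over windows within 1 kb of the start, after alignment with minimap2 2.17-r941. Tool versions are from the submitters' processing notes. Neither gives counts or coverage, so the depth is unknown, and precision rests on the 2 lines per origin. Each line is 1 clone, so p-values measure the spread between lines.

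Members were matched to GENCODE vM21 by Ensembl ID, and sequences were read from the GRCm38.p6 genome. Pseudogene parents were the best blastn hit (BLAST 2.17.0+) covering at least 75% of the pseudogene. Values on a log2 scale used a pseudocount of 1 RPKM. H3K36me3 and the fraction minus the line mean were tested over all rows with a value in all 4 lines with limma 3.58.1 (R 4.3.3, eBayes with trend, Benjamini-Hochberg adjustment). The fits were also run on simulated data with a smaller spread than most members had here. That check therefore says nothing of the power in these data. H3K4me3 was not tested. An exact permutation test over 4 lines cannot go below p = 0.333. Genes were named by rule: the 2 genes that chose the window, members with H3K4me3 in all lines or in 1 origin only, limma calls, and the 5 largest rises and falls. Other named members illustrate their families and were chosen after their values were seen. The members and lists were chosen with earlier results of these data known.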

Additional observations from a re-analysis of the deposited data

How the results depend on the processing

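No paired analysis was possible because the line numbers of the PTC and TTF lines are not shared. The H3K4me3 median difference of members, -0.63 on the log2(RPKM + 1) scale, was -0.94 with a pseudocount of 0.1 RPKM and -0.26 with missing values set to 0. It was -1.19 without TTF1 and -0.048 without TTF4, the lowest and highest values as each line was left out. The members with both TTF lines below both PTC lines rose in number from 5 of 10 to 12 of 60 with missing values set to 0. The share of all genes at that setting is not given here, so nothing is read from this rise. The 2 members called in H3K36me3 became 0 under quantile normalization, 0 without the variance trend, 0 after a filter for a mean RPKM of 1 or more, and 0 to 3 as each line was left out (0 without TTF4). The H3K36me3 median difference was -0.88 with a pseudocount of 0.1. For methylation limma called 0 members, and 0 to 9 as each line was left out (9 without TTF1, with 1.97% of all genes called, and 1 without TTF4, with 0.517%, the lone TTF line being assumed to vary like the PTC lines). The median methylation difference was 0.13 without centring. The cause of these changes was not tested. The count of members with TTF4 more than 30 points above each other line was 26, where 14.9% of all genes passed. It was 30 for a limit of 0.2 (30.1% of all genes), 13 for 0.5 (2.98%) and 10 after centring (2.43%). These alternatives were chosen after seeing the data. Of 58 alternatives in all, 40 kept the direction and call or moved a value by less than its spread, and 18 moved it further. Depth and coverage are not in the files and set no limit that could be computed.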

Other observations

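Several members had methylation values in fewer than 4 lines and belong to no comparison above. Gm13237, an Hmgb2 copy, was at 0% in TTF1 and 97.8% in TTF4. Zfp993, whose start window is 99.7% identical to that of Zfp991 over the aligned bases, was at 46.2% in TTF1 and 95.8% in TTF4. The antisense RNA gene 1700095A21Rik was at 100% in both PTC12 and TTF4 and at 33.3% in TTF1. Gm13166 was at 66.7% in PTC11, 0% in PTC12 and 100% in TTF1. Between 1.21 and 3.49% of the 24-base words at these starts occurred once in the genome.

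Zfp42 (Rex1), a marker of the naive pluripotent state that was among the genes of zinc finger repression, was methylated at 2.84% and 20.9% in PTC11 and PTC12, and 10.0% and 80.3% in TTF1 and TTF4. Its H3K4me3 was 4.86, 2.54 and 3.11 RPKM in PTC11, PTC12 and TTF1, with no value in TTF4. The pattern over the lines was that of the CpG-rich pseudogenes, at a start with 50 CpGs, and it was not tested.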
